A study of Caenorhabditis elegans with 245 samples.

Results

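The mir-35 family of Caenorhabditis elegans comprises 8 microRNA (miRNA) genes, mir-35 to mir-42, and its levels were followed through every small RNA library of the study. The members were taken as the rows named cel-mir-35 to cel-mir-42 among the 250 miRNA rows of each small RNA table, so the choice used names and no measured value. Each row is a hairpin gene, and reads of its 5′ and 3′ arms are not separated. The study covers 245 samples in 22 groups, of which 45 are small RNA libraries of whole males, whole females and purified sperm, and the others are mRNA libraries of single embryos or adult F1 animals.

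All animals carried fog-2(q71), which leaves males fertile and turns hermaphrodites into females that make oocytes but no sperm. The strain with no other mutation is called wild type (WT). The mutants concern rnst-2, the gene of the only RNase T2 in this worm. The ∆ allele is a CRISPR frameshift with an early stop, and the cat allele replaces a catalytic histidine with alanine in an rnst-2 gene that also carries a gfp::3xflag tag. Heterozygotes (∆/+ and cat/+) carry the balancer tmC16 on the other chromosome. The small RNA groups were 4 WT males, 4 WT sperm, 5 ∆/+ males, 6 ∆/∆ males, 5 cat/+ males, 6 cat/cat males, 4 cat/cat sperm with 3 cat/cat males from the same set, 4 ∆/+ females and 4 ∆/∆ females. The rnst-2 males and females were progeny of heterozygous parents, picked by sex as L4 larvae and grown to adults, so the females were unmated and each library is a pool of animals. Sperm came from bulk cultures filtered for males, and the study accepted a lower purity of males for rnst-2 mutants. The labels do not say which libraries came from separate cultures, so each p-value measures the spread between these libraries, which may in part be technical. In such bulk samples fewer cells of a type and less RNA per cell cannot be told apart.

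A miRNA is cut from a hairpin precursor, loaded into an Argonaute protein, and pairs with target mRNAs mainly through its seed, bases 2 to 8 counted from the 5′ end. The mir-35 family is known as an oocyte and early embryo family. It is deposited by the mother and made in the embryo, the family as a whole is needed for embryos to develop, its members act redundantly, and it is cleared at the end of embryogenesis. Reported targets include egl-1, a gene that starts cell death, and the RNA-binding protein genes sup-26 and nhl-2.

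The mature 3′ arms of the 8 members are printed here because the shared seed is what makes them a family, with the seed in capitals (RefSeq, WBcel235, all on the plus strand of chromosome II).
mir-35: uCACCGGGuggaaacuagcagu
mir-36: uCACCGGGugaaaauucgcaug
mir-37: uCACCGGGugaacacuugcagu
mir-38: uCACCGGGagaaaaacuggagu
mir-39: uCACCGGGuguaaaucagcuug
mir-40: uCACCGGGuguacaucagcuaa
mir-41: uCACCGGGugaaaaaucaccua
mir-42: uCACCGGGuuaacaucuacaga

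Of 458 mature miRNAs annotated, the 8 listed were the ones that carried this seed. Each is 22 bases long, and the first 8 positions were identical in all 8 members, as were 10 positions in all. Differences lay in the other part of the sequence and ranged from 3 of 22 positions (mir-35 and mir-37, and mir-39 and mir-40) to 9 of 22 (mir-38 and mir-40). At that distance the mature forms can be told apart by whole reads, but reads shortened to the 5′ part could be assigned to a wrong member, and how such reads were assigned is not given in the sources used here.

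The genes mir-35 to mir-41 lie in 1 cluster of 797 bases at II:11537608-11538404, with 2 to 61 bases between neighboring hairpins. All 7 hairpins fall inside an intron (II:11536066-11538445) of Y62F5A.9, a protein-coding gene on the opposite strand. mir-42 lies 351406 bases away at the head of a second cluster of 308 bases (II:11889811-11890118) that also holds mir-43 and mir-44. These neighbors do not share the seed, as their mature sequences show.
mir-43: uAUCACAGuuuacuugcugucgc
mir-44: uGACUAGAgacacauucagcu

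Small RNA libraries held between 4976236 and 51191372 counts, and rRNA took a share that differed by group: 3.43 to 6.42% in females, 3.55 to 5.72% in heterozygous males, 18.3 to 26.9% in homozygous males, 15.9 to 24.5% in WT sperm and 58.7 to 68.3% in cat/cat sperm. Levels are therefore given as rpm, the counts of a miRNA per 1000000 counts other than rRNA. In females piRNA counts are also missing from the denominator, a class that made up 0.686 to 3.39% of the counts other than rRNA in the other 37 libraries. For differences between groups, edgeR's quasi-likelihood test was run across all RNAs of a comparison, with Benjamini-Hochberg adjustment over all of them and a threshold of 0.05. All 8 members passed the filter on low counts in each comparison.

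The highest levels of the family were found in whole females, and mir-35 made up 54.8% of them or more. In the ∆/+ females cel-mir-35 stood at 6699.5, 3617, 3677 and 5068 rpm. In the ∆/+ males it stood at 26.8, 21.6, 27.4, 25.7 and 28.4 rpm. No female library overlapped a male one, and the ratio of means was 183. Here and below, the share of all RNAs whose groups did not overlap was not counted, so lack of overlap only describes these values. Among the 250 miRNAs of a library, mir-35 held places 8 to 13 in females and places 88 to 108 in ∆/+ males.

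The next 3 members of the same cluster followed mir-35. cel-mir-39 stood at 1963, 1145, 1174 and 1651 rpm in ∆/+ females against 22.2, 8.63, 24.3, 40.4 and 11.5 rpm in ∆/+ males. cel-mir-40 stood at 1591, 811, 942 and 1119 rpm against 26.2, 7.73, 15.2, 19.6 and 15.4 rpm. Both genes were thus at 811 rpm or more in females and at most 40.4 rpm in these males. cel-mir-37 stood at 1175, 609, 668 and 908 rpm against 20.8, 9.12, 15.9, 19.1 and 29.6 rpm. The ratios of means were 69.3 for mir-39, 66.4 for mir-40 and 44.4 for mir-37. In none of these members did a female library overlap a male one, again with no share over all RNAs to set beside it.

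The other members of the family were far less different between the sexes. cel-mir-36 stood at 218, 111, 114 and 179.6 rpm in ∆/+ females and at 32.8, 7.93, 31.6, 59.9 and 74.9 rpm in ∆/+ males, a ratio of 3.76. cel-mir-38 stood at 55.5, 24.2, 21 and 39.9 rpm in females and at 16.7, 7.63, 12, 25.3 and 23.2 rpm in males, so that its groups overlapped. Neither mir-41 nor mir-42 was higher in females. cel-mir-41 stood at 6.43, 4.59, 2.10 and 5.04 rpm in ∆/+ females, and at 6.45, 3.47, 7.72, 11.1 and 12.1 rpm in ∆/+ males. cel-mir-42 stood at 5.44, 6.33, 6.16 and 4.78 rpm in females, and at 9.46, 5.65, 7.18, 8.50 and 10.2 rpm in males. The female values of mir-41 rest on 17 to 136 counts a library and those of mir-42 on 38 to 115.

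**Figure D1:**
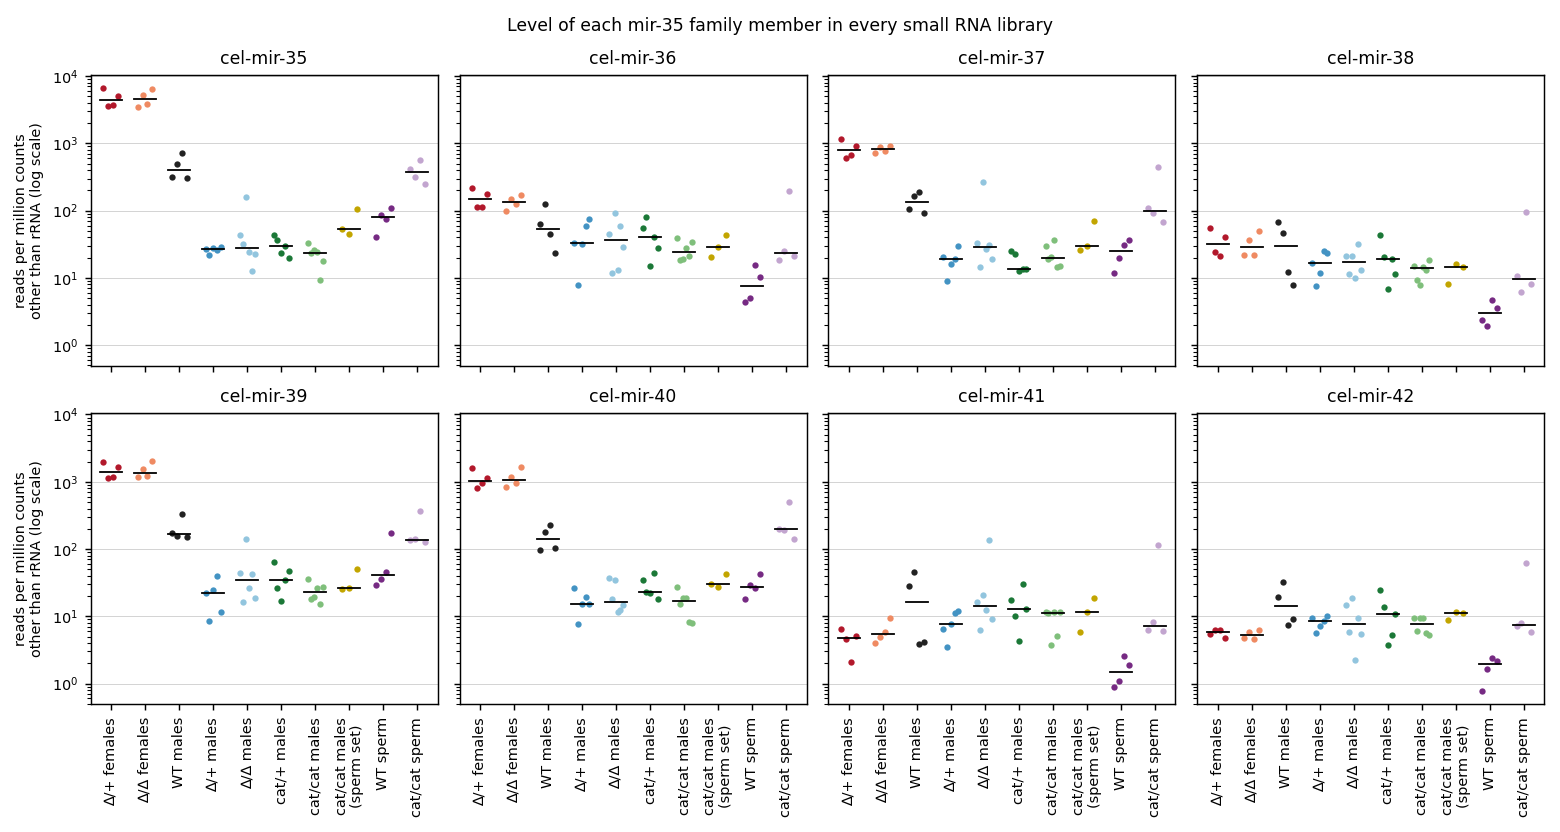
Level of each member in every small RNA library, in rpm on a log scale, with 1 point per library and a line at the group's median. mir-35, mir-37, mir-39 and mir-40 stand at 609 rpm or more in every female library and at most at 263 rpm in every library of whole rnst-2 males, while mir-41 and mir-42 lie at 9.44 rpm or less in females.

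In the test of ∆/+ females against ∆/+ males, 6 of 8 members were higher in females and none was lower, where 32.9% of all 20194 RNAs tested were called higher. Among the 242 miRNAs tested, 7.02% were called higher in females and 64.0% lower. The median log2 fold change was 3.69 over the 8 members, −2.04 over miRNAs and 0.43 over all RNAs. The log2 fold change was 7.50 ± 0.67 (SE; edgeR adjusted p = 4.62e-08) for mir-35, 6.11 ± 0.66 for mir-39 (adjusted p = 5.43e-07), 6.04 ± 0.42 for mir-40 (adjusted p = 8.52e-11) and 5.47 ± 0.81 for mir-37 (adjusted p = 2.47e-05). mir-36 was higher by 1.91 ± 0.59 (adjusted p = 0.0107). mir-38 was called at 1.05 ± 0.37 (adjusted p = 0.0181), a call that was lost without ∆/+ female 1 (0.74, adjusted p = 0.112), with TMM factors (adjusted p = 0.105) and with DESeq2 (adjusted p = 0.131). mir-41 and mir-42 did not pass the test, at −0.83 ± 0.75 (adjusted p = 0.361) and −0.54 ± 0.45 (adjusted p = 0.303). Females and males are in separate tables, so sex and library set cannot be told apart.

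The same pattern was seen in animals without a functional rnst-2 gene. In the ∆/∆ females mir-35 stood at 3426, 5207, 3906 and 6416 rpm, and in the ∆/∆ males it ranged from 12.8 to 159 rpm with a median of 28. Again 6 of 8 members were higher in females, and 1 was lower, where 36.3% of all 20194 RNAs were called higher and 27.1% lower (miRNAs: 8.26% higher, 69.0% lower). The log2 fold change was 6.57 ± 0.59 for mir-35 (edgeR adjusted p = 4.07e-08), 5.72 ± 0.39 for mir-40, 4.91 ± 0.58 for mir-39 and 3.64 ± 0.69 for mir-37 (adjusted p = 2.36e-04 or less for each). mir-36 was at 1.69 (adjusted p = 0.0136) and mir-38 at 0.82 (adjusted p = 0.0466). With TMM factors neither mir-36 (adjusted p = 0.0823) nor mir-38 (adjusted p = 0.476) was called, nor were they with DESeq2 (adjusted p = 0.0679 and 0.672), and the call of mir-38 was also lost without any 1 of ∆/∆ males 1, 2, 4 and 6 and ∆/∆ females 2 and 4 (log2 fold changes of 0.54 to 0.87). mir-41 was lower in females, by −2.50 ± 0.76 (adjusted p = 0.00805), a call lost without ∆/∆ males 3 and 5 together (−0.89, adjusted p = 0.0702). ∆/∆ male 5 alone held 138 rpm of it. mir-42 was not called (−0.84, adjusted p = 0.0917), except without ∆/∆ male 4 (−1.04, adjusted p = 0.0247), with TMM factors (−1.39, adjusted p = 0.00918) and with DESeq2 (−1.50, adjusted p = 5.92e-04).

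Summed over the 8 members, the family reached 11713, 6328, 6605 and 8976 rpm in ∆/+ females, and 6255, 8998, 7009 and 11241 rpm in ∆/∆ females. The sum was 162, 71.8, 141, 209.6 and 205 rpm in ∆/+ males, and the ratio of means of ∆/+ females to ∆/+ males was 53.2. As a percentage of all miRNA counts the family made up 2.92 to 6.78% in ∆/+ females and 3.29 to 6.93% in ∆/∆ females, against 0.0255 to 0.0715% in ∆/+ males. On this scale, which does not depend on the other RNA classes, the ratio of means was 84.3.

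**Figure D2:**
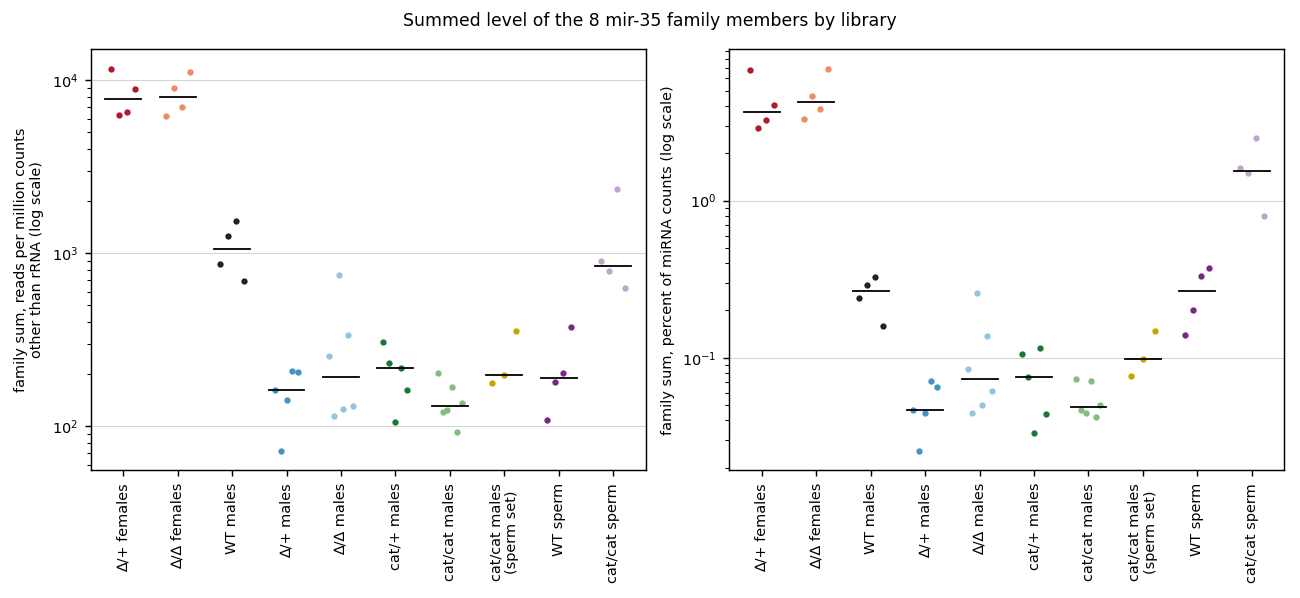
Sum of the 8 members by library, in rpm (left) and as a percentage of miRNA counts (right), both on log scales, with 1 point per library and a line at the group's median. Females lie at 6255 rpm or more on the left and 2.92% or more on the right, and the order of WT males and WT sperm on the left is not seen on the right, where their ranges overlap.

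Members of the family differed from one another by more than the libraries did. In the 8 female libraries mir-35 made up 54.8 to 57.9% of the family's counts, mir-39 16.8 to 18.6%, mir-40 12.5 to 14.6% and mir-37 8.23 to 11.3%. mir-36 made up 1.54 to 2.00% and mir-38 0.308 to 0.474%. The order of levels in ∆/+ females was mir-35, mir-39, mir-40, mir-37, mir-36, mir-38, and then mir-42 and mir-41. Ranges overlapped between mir-39 and mir-40, between mir-40 and mir-37, and between mir-42 and mir-41, although within each female library mir-39 stood above mir-40 and mir-40 above mir-37. Level did not follow position in the cluster, since mir-36 and mir-38 lie on either side of mir-37. Cloning and alignment can favor one miRNA over another, so the order between members is that of their reads.

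In the rnst-2 males this composition was flatter. In ∆/+ males the median share was 22.4% for mir-36, 16.6% for mir-35, 13.8% for mir-39, 12.7% for mir-37, 10.8% for mir-40, 10.6% for mir-38, 5.27% for mir-41 and 5.08% for mir-42. In WT males the median share was 41.8% for mir-35, 20.8% for mir-39, 14.6% for mir-40 and 12.9% for mir-37, which is the order seen in females.

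**Figure D3:**
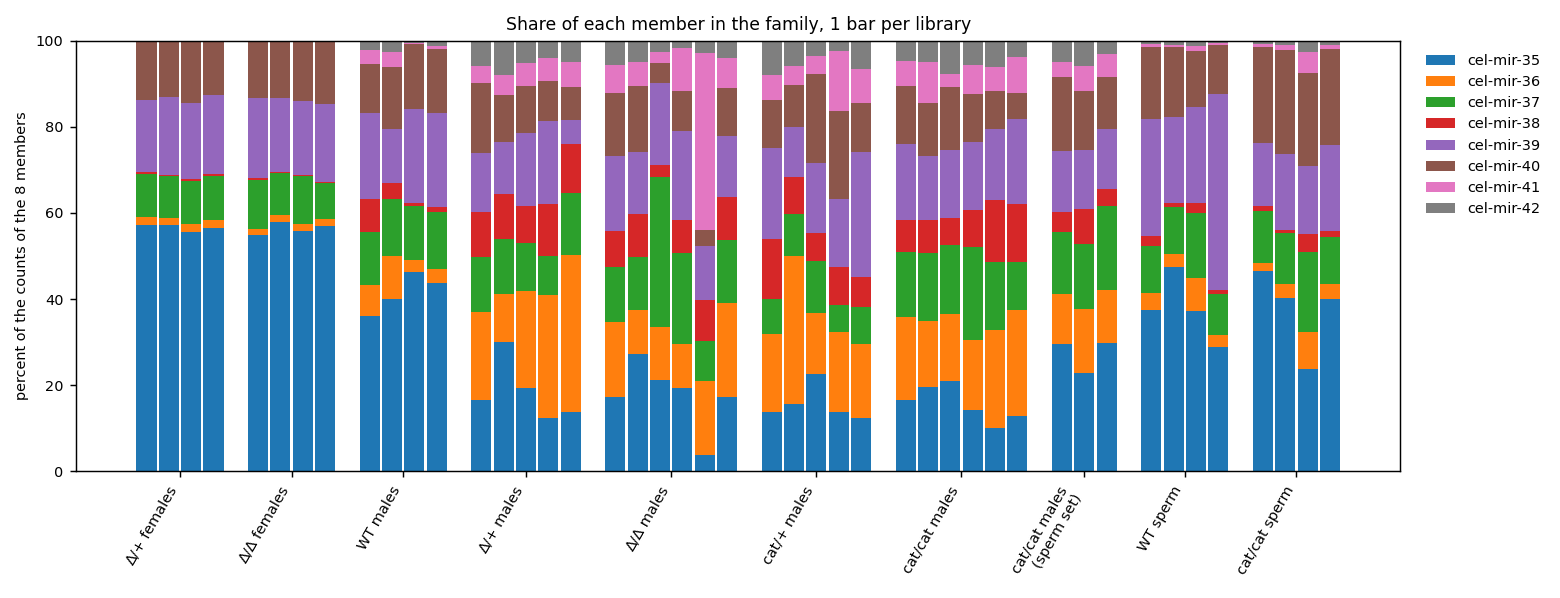
Share of each member in the summed counts of the family, with 1 bar per library and the libraries of a group side by side. mir-35 takes 54.8 to 57.9% of each female bar, and a median of 16.6% of the bars of ∆/+ males.

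The loss of rnst-2 was not accompanied by a detectable change of the family in females. None of the 8 members passed the test between ∆/∆ and ∆/+ females, where 0.0339% of 14748 RNAs did (edgeR), and none had an unadjusted p under 0.05 or passed with DESeq2. Log2 fold changes lay between −0.20 ± 0.24 (mir-36) and 0.39 ± 0.36 (mir-41), and that of mir-35 was −0.01 ± 0.24. The mir-35 values of ∆/∆ females (3426 to 6416 rpm) lay within the range of ∆/+ females except for the lowest.

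In males the ∆ allele also gave no called member, among 15133 RNAs of which 1.3% were called higher and 12.7% lower in ∆/∆ males (edgeR, 196 and 1917 RNAs). With total counts as library size, which include the higher rRNA share of the homozygotes, no member had an unadjusted edgeR p under 0.05. There was 1 such member with rRNA left out and 2 with TMM factors. There were 2 with the replicate number as a block, 3 with DESeq2 and 4 with miRNA counts as library size. The median over the members was 0.34 with total counts, 0.84 with TMM factors and 0.85 with miRNA counts (all miRNAs: −0.17, 0.32 and 0.36). With DESeq2 1 member, mir-41, was called higher (2.18, adjusted p = 0.0260), while mir-37 was given no p. The direction over all RNAs depended on the scaling, since DESeq2 called 2.75% of RNAs higher and 0.522% lower (416 and 79 RNAs). Same-numbered libraries of these males correlated in their deviations from group means, though no label gives a pairing. With the number as a block 1.33% of RNAs were called higher and 20.7% lower (201 and 3128 RNAs), and again no member. The log2 fold changes ranged from −0.28 ± 0.63 (mir-36) to 1.81 ± 0.85 (mir-41, edgeR adjusted p = 0.202). The positive values came with 2 libraries. ∆/∆ male 3 held 263 rpm of mir-37, where the other 5 held 14.3 to 32.6 rpm, and ∆/∆ male 5 held 138 rpm of mir-41, where the others held 6.22 to 20.8 rpm. Without ∆/∆ male 3 the log2 fold change of mir-37 fell from 1.48 to 0.12, and that of mir-35 from 0.62 to −0.22. In ∆/∆ male 3 the yolk mRNA-fragments summed to 4.61 rpm, the highest of its group (median 1.84), and the oocyte fragments to 9.21 rpm, while in ∆/∆ male 5 the oocyte sum was the lowest of the group with 2.13 rpm. Their part in these values was not tested.

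The change from heterozygote to homozygote was compared between the sexes with an interaction term. No member differed, where 0.114% of 20194 RNAs did (edgeR), and none had an unadjusted p under 0.05. DESeq2 called none, with 3 members at an unadjusted p under 0.05.

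The catalytic allele was tested in whole males. In cat/+ males mir-40 stood at 34.6, 23.1, 21.9, 44 and 18.2 rpm, and in cat/cat males it ranged from 8.02 to 27.4 rpm with a median of 16.7, so that the groups overlapped. mir-39 stood at 65.1, 26.8, 17, 34.1 and 47.3 rpm in cat/+ males and ranged from 15.4 to 36.0 rpm (median 23.2) in cat/cat males. With total counts as library size, which include the higher rRNA share of the homozygotes, 2 of 8 members were lower in cat/cat males, where 11.4% of 16248 RNAs and 9.39% of 245 miRNAs were (edgeR). These were mir-40 (−1.16 ± 0.35, adjusted p = 0.0382) and mir-39 (−1.01 ± 0.32, adjusted p = 0.0474). The median over the members was −0.99, and that over all miRNAs −0.65. With rRNA left out of the library size, with TMM factors, with DESeq2, with miRNA counts as library size or with a replicate block no member was called, and with no filter on low counts mir-36 was called in their place (−1.05, adjusted p = 0.0466) (DESeq2: 2.58% of RNAs higher and 0.271% lower, 419 and 44 RNAs against 169 and 1857). Both calls were also lost without any 1 of cat/cat males 2 to 6 or cat/+ male 1, and that of mir-39 without cat/+ male 5 (mir-39 −0.73 to −1.05, mir-40 −1.02 to −1.20). mir-36 was called without cat/+ male 3 (−1.27, adjusted p = 0.0183) or cat/+ male 5 (−1.18, adjusted p = 0.0458), and mir-42 without cat/+ male 4 (−1.15, adjusted p = 0.0326).

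An interaction term compared the effects of the 2 alleles in males. None of the 8 members was called, where 0.0% of 19406 RNAs were (edgeR). At an unadjusted p under 0.05 there were 4 members with edgeR, mir-41, mir-39, mir-40 and mir-35, and 3 with DESeq2, which called none. Their log2 differences, cat minus ∆, were −2.84 for mir-41, −1.90 for mir-39, −1.22 for mir-40 and −1.41 for mir-35. The ∆/∆ males 3 and 5 enter these differences, and without both of them no member was called either. With no filter on low counts mir-39 and mir-41 were called (adjusted p = 0.0486 and 0.0133).

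**Figure D4:**
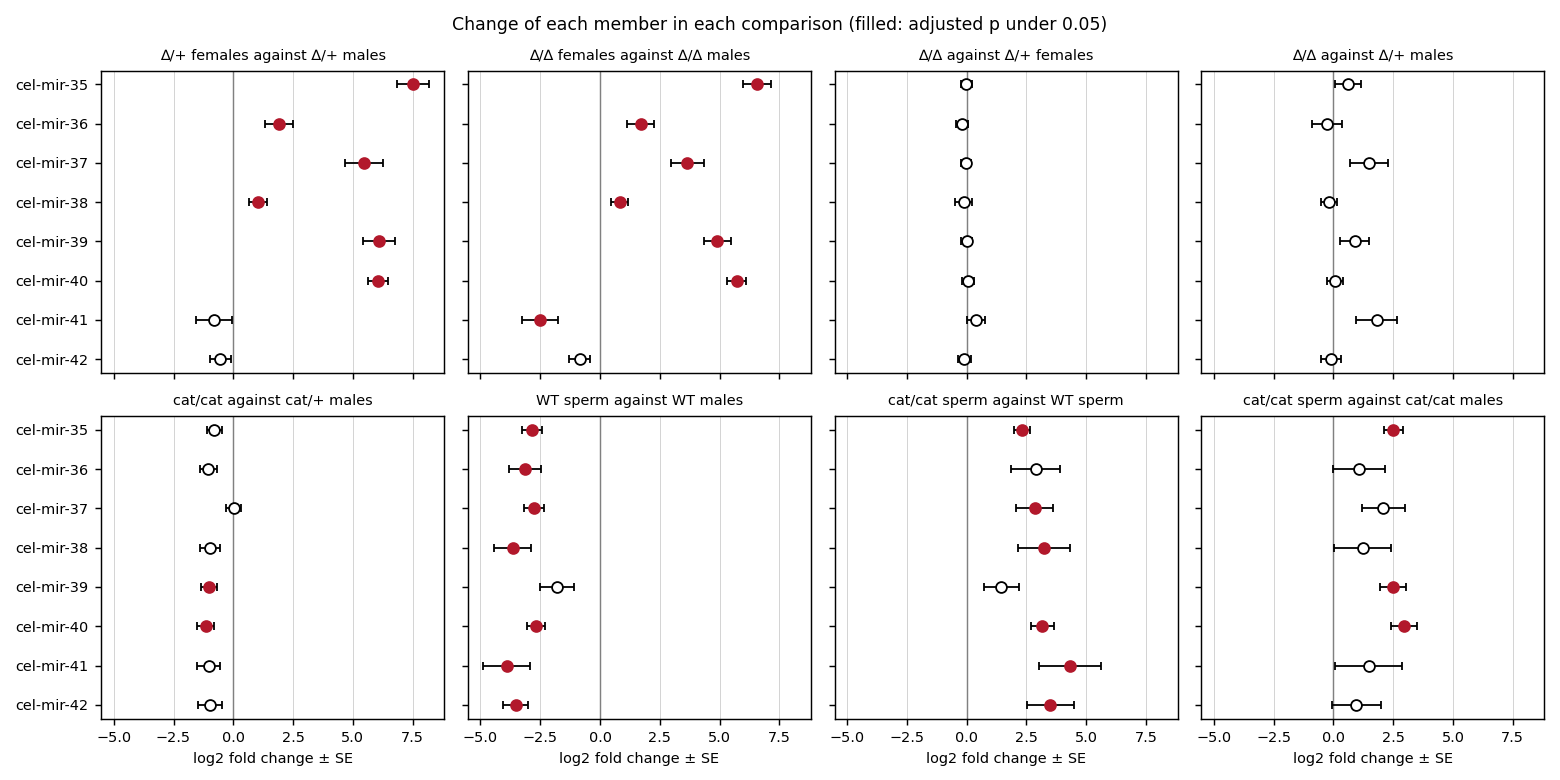
Log2 fold change of each member in 8 comparisons, with bars of 1 SE and filled points where edgeR's adjusted p was under 0.05. Filled points lie to the right in cat/cat sperm and in both comparisons of females with males, where only mir-41 in ∆/∆ animals is filled on the left. They lie to the left in WT sperm and for mir-39 and mir-40 in cat/cat males, and no point is filled between ∆/∆ and ∆/+ animals.

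WT males held more of the family than any group of rnst-2 males by median. mir-35 stood at 314, 500.1, 709.5 and 301 rpm in WT males, above each of the 25 libraries of males with an rnst-2 allele, whose highest value was 159 rpm. The family sum was 869, 1252, 1537 and 690.4 rpm in WT males, against 71.8 to 308 rpm in the 10 heterozygous males. In the homozygotes ∆/∆ male 3 held 753 rpm, which is above WT male 4, so that WT and ∆/∆ males overlapped in the sum. The ratio of means to ∆/+ males was 6.88 for the family and 17.5 for mir-35. These libraries come from other tables, so strain and library set cannot be told apart, and no test was made. The summed oocyte mRNA-fragments overlapped, with 6.97 to 13.8 rpm in WT males and 5.26 to 16.6 rpm in heterozygous males. The yolk fragments overlapped too but had a higher median in WT males, with 4.82 rpm (2.18 to 9.05) against 2.28 rpm (0.192 to 2.88) in ∆/+ and 1.73 rpm (0.320 to 17.1) in cat/+ males. Their part in the levels of the family was not tested.

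Purified WT sperm held less of the family than whole WT males in rpm. mir-35 stood at 40.6, 85.4, 75.3 and 109 rpm in sperm, below each male library. mir-40 stood at 18, 29.2, 26 and 43.1 rpm in sperm against 98.1, 178, 231 and 103 rpm in males. mir-39 stood at 29.5, 35.6, 45.3 and 171 rpm against 174, 157, 335 and 149.6 rpm, so that WT sperm 4 lay within the range of the males. mir-41 and mir-42 were at 0.774 to 2.56 rpm in sperm.

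In WT sperm 7 of 8 members were lower (against 33.5% of 24428 RNAs and 88.7% of 248 miRNAs called lower by edgeR). The log2 fold change was −2.84 ± 0.43 for mir-35 (adjusted p = 6.41e-04) and −2.67 ± 0.38 for mir-40 (adjusted p = 2.52e-04), and the lowest was −3.89 ± 0.98 for mir-41 (adjusted p = 0.0109). mir-39 did not pass (−1.78 ± 0.71, adjusted p = 0.0650), but did without WT sperm 4 (−2.81, adjusted p = 3.25e-05). The median was −2.98 over the members and −2.68 over all miRNAs. With miRNA counts as library size no member was called, where 0.323% of RNAs were called lower, the median over the members was −0.27 and mir-39 was at 0.75. As a percentage of miRNA counts the family made up 0.139 to 0.375% in WT sperm and 0.160 to 0.328% in WT males, which overlapped.

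cat/cat sperm held more of the family than WT sperm. mir-35 stood at 422, 318, 558 and 252 rpm in cat/cat sperm, above each WT sperm library. mir-40 stood at 202, 190.4, 507 and 141 rpm, again with no overlap. mir-39 stood at 134, 139, 368 and 126 rpm, and here WT sperm 4 with 171 rpm lay inside the range. cat/cat sperm 3 was the highest library for every member, with 115 rpm of mir-41 where the other 3 libraries held 5.96 to 8.22 rpm. The family sum was 909, 787, 2346 and 628 rpm in cat/cat sperm and 108, 179.6, 203 and 378 rpm in WT sperm.

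With rRNA left out of the library size, 6 of 8 members were higher in cat/cat sperm, where 31.4% of 22832 RNAs and 36.8% of 234 miRNAs were (edgeR). The log2 fold change was 2.32 ± 0.33 for mir-35 (adjusted p = 1.84e-04) and 3.16 ± 0.49 for mir-40 (adjusted p = 0.00107), and these calls held without any 1 library and in all other settings tried. mir-37 (2.85, adjusted p = 0.0194), mir-38 (3.23, adjusted p = 0.0419), mir-41 (4.33, adjusted p = 0.0292) and mir-42 (3.49, adjusted p = 0.0237) were also called. Their log2 fold changes rested in large part on cat/cat sperm 3, without which mir-37 was at 1.86, mir-38 at 1.38, mir-41 at 2.01 and mir-42 at 1.92, all still called (adjusted p = 0.00196 or less). The count was 3 without WT sperm 1 or without WT sperm 3 and 2 without WT sperm 2, and mir-38, mir-41 and mir-42 were each lost without any 1 of the WT sperm libraries (adjusted p = 0.0533 to 0.101). mir-38 was also lost without cat/cat sperm 1 (adjusted p = 0.0504), and mir-37 without WT sperm 2 (2.75, adjusted p = 0.0552). mir-36 did not pass (2.88, adjusted p = 0.0529) but did without cat/cat sperm 3 (1.27, adjusted p = 0.0467), with miRNA counts as library size (adjusted p = 0.0123) and with a replicate block (adjusted p = 0.00759). mir-39 did not pass (1.45, adjusted p = 0.138) but did without WT sperm 4 (2.38, adjusted p = 0.00281) and with miRNA counts as library size (1.71, adjusted p = 2.06e-05). With all counts as library size 2 members were called, where 6.24% of RNAs were called higher, and the ratio of family means was 2.34 with overlapping groups, against 5.38 in rpm and 6.10 as a percentage of miRNA counts. Without cat/cat sperm 3 the ratio in rpm was 3.57.

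The cat/cat sperm were also compared with 3 whole cat/cat males of the same set, in which mir-35 stood at 52.6, 45 and 106 rpm. Here 3 members were higher in sperm, where 33.9% of 18430 RNAs and 3.73% of 241 miRNAs were (edgeR). They were mir-40 (2.96 ± 0.53, adjusted p = 0.00243), mir-35 (2.51 ± 0.41, adjusted p = 7.36e-04) and mir-39 (2.49 ± 0.53, adjusted p = 0.00530). Without cat/cat sperm 3, mir-37 was called as well (1.10, adjusted p = 0.0259), as it was with DESeq2 (2.44, adjusted p = 0.00585), and without that library mir-36, mir-38, mir-41 and mir-42 changed sign (−0.53 to −0.84, none called). The median was 1.78 over the members and 0.41 over all miRNAs, and with miRNA counts as library size 7 members were called, where 59.2% of RNAs were called higher.

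mRNA-fragments of genes used as markers of female cells were higher in cat/cat sperm than in WT sperm. The study reports that mRNA-fragments as a class are enriched in sperm. Their total was not set beside these sums, so a higher sum cannot be read as more female cells. The summed mRNA-fragments of 13 oocyte and female germline genes, among them the yolk receptor gene rme-2, were 167 to 230 rpm in cat/cat sperm, 69.9 to 116 rpm in WT sperm and 13.5 to 18.9 rpm in cat/cat males of the set, and 13 of 13 were detected in every library of both sperm groups. The 6 yolk protein genes vit-1 to vit-6, made in the female intestine, summed to 584 to 782 rpm in cat/cat sperm and 59.6 to 227 rpm in WT sperm, and none of the 6 was at 0 in either. In females the oocyte sum was 27.4 to 107 rpm and the yolk sum 149 to 937 rpm. Sperm genes were higher too, at 580 to 717 rpm for the sum of 12 genes in cat/cat sperm, 150 to 226 rpm in WT sperm and 0.709 to 2.94 rpm in females. From WT to cat/cat sperm the median went from 187 to 626 rpm for sperm genes and from 89.9 to 218 rpm for oocyte genes. For yolk genes it went from 93.0 to 712 rpm. cat/cat sperm 3, the library with the most of the family, had the lowest oocyte and yolk sums of its group (167 and 584 rpm) and the highest sum of 7 somatic miRNAs (11590.1 rpm, against 7271 to 9848 rpm). The part of female cells in the levels of the family in sperm was not tested. The WT sperm libraries are listed both beside the WT males and beside the cat/cat sperm, and the labels do not say whether sperm of both genotypes were prepared together.

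**Figure D5:**
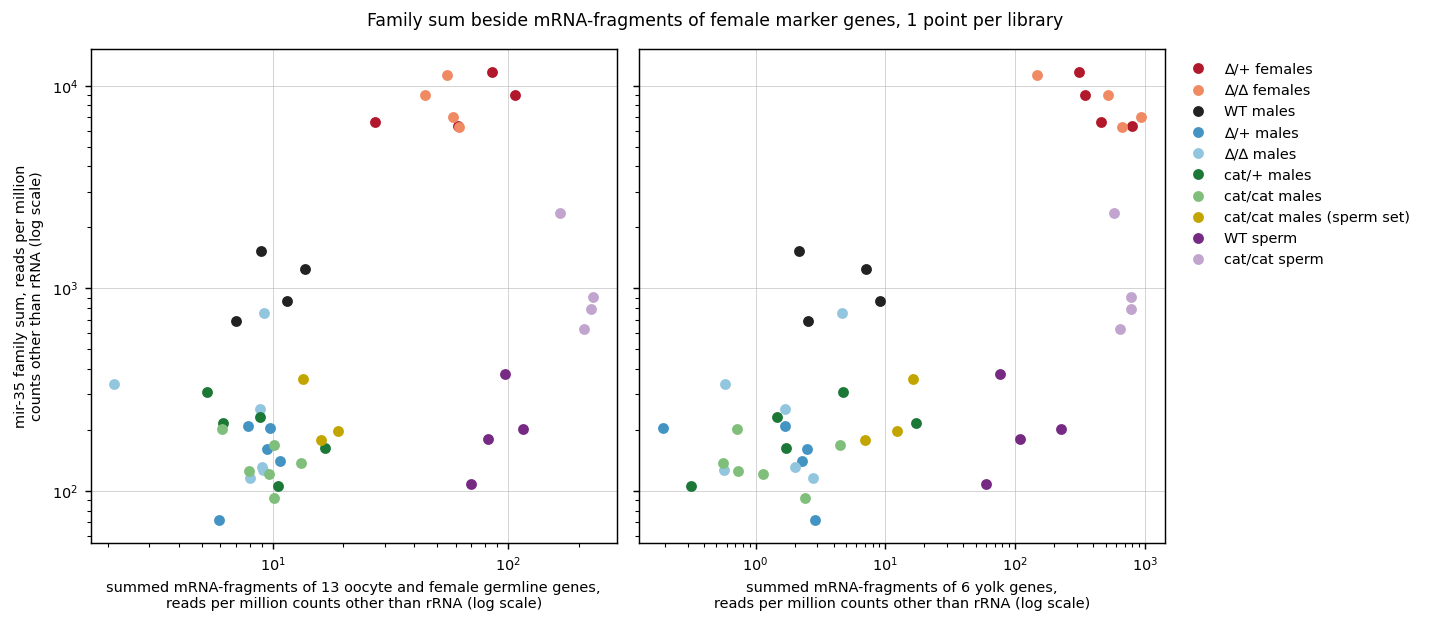
Family sum against the summed mRNA-fragments of 13 oocyte and female germline genes (left) and of 6 yolk genes (right), in rpm on log scales, with 1 point per library. The cat/cat sperm lie at 167 to 230 rpm of the oocyte genes with 628 to 2346 rpm of the family, while WT males lie at 6.97 to 13.8 rpm of the oocyte genes with 690.4 to 1537 rpm of the family.

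Oocyte fragments and the family did not stand in 1 ratio across samples. WT sperm held more oocyte fragments than WT males in each library (69.9 to 116 against 6.97 to 13.8 rpm) and less of the family (108 to 378 against 690.4 to 1537 rpm). Among the 248 miRNAs tested, 88.7% were called lower in WT sperm than in WT males (edgeR). The study reports mRNA-fragments as a class to be enriched in sperm. Because both classes shift between males and sperm, this contrast cannot tell where the family in sperm came from. The source was not tested. The composition of the family in cat/cat sperm was led by mir-35, mir-40 and mir-39, with medians of 369.6, 196 and 137 rpm. mir-40 stood above mir-39 in 4 of 4 of these libraries, whereas mir-39 stood above mir-40 in 8 of 8 female and 4 of 4 WT sperm libraries. In the cat/cat males of the same set mir-40 was also above mir-39 by median (30.6 and 26.7 rpm).

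The cluster mates of mir-42 were not high in females. mir-43 stood at 2.41, 1.65, 2.34 and 1.64 rpm in ∆/+ females, and at 20.8, 8.03, 13.4, 26.8 and 28.2 rpm in ∆/+ males. It was lower in females in both genotypes, by −3.26 ± 0.80 (edgeR adjusted p = 0.00212) in ∆/+ and −4.84 ± 0.84 (adjusted p = 7.32e-05) in ∆/∆ animals. mir-44 was much more abundant than mir-42, with 1175 to 1523 rpm in ∆/+ females and 659 to 4379 rpm in ∆/+ males, and did not differ by the test (−1.11, adjusted p = 0.173). Its mature sequence is identical to that of mir-45, a gene outside the cluster, so how its reads are divided between the pair is uncertain.

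Across the 45 libraries, the members fell into those that followed the family sum and those that did not. The Pearson correlation of log2(rpm + 1) with the sum was 0.98 for mir-39, mir-37, mir-35 and mir-40, 0.78 for mir-36, 0.57 for mir-38 and −0.01 for mir-41. Among pairs of members it was highest for mir-35 and mir-40 (0.98) and lowest for mir-35 and mir-41 (−0.17), while mir-41 and mir-42 correlated at 0.73. Each member is part of the sum, and the libraries share groups and depth, so these are descriptions.

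Of 165 miRNAs with a mean of at least 10 rpm, the 5 others most like the family sum were mir-85 (r = 0.93, Spearman's rho = 0.85), mir-8196b (0.85 and 0.71), mir-8196a (0.82 and 0.74), mir-240 (0.76 and 0.69) and mir-1829b (0.69 and 0.55). mir-85 stood at 378 to 612 rpm in ∆/+ females and 15.1 to 49.9 rpm in ∆/+ males. The likeness came largely from females, because without the 8 female libraries (n = 37) r fell to 0.77 for mir-85, 0.51 for mir-8196b, 0.49 for mir-8196a, 0.38 for mir-240 and 0.22 for mir-1829b. Members, which are part of the sum, were then at 0.91 to 0.94 for mir-35, mir-37, mir-39 and mir-40. mir-36 fell to 0.57 and mir-38 to 0.44, both below mir-85, while mir-41 rose to 0.41.

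The mRNA files show how far the genes that make and use miRNAs differed between the sexes. In adult F1 progeny of WT sires (3 samples of females and 3 of males), 12 of a list of 16 genes passed the filter on low values, a mean of at least 5 TPM over both sexes, and these were called higher in females, as 57.7% of 8368 genes were (limma on log2(TPM + 1)). Of the 12 genes, 7 had male means of 1.18 to 4.82 TPM and passed through their female values, so the count says little about the list. They were pash-1, alg-2, alg-5, nhl-2, dcr-1, ain-1 and xrn-1, and p-values printed for them below add no support beyond their levels. With a mean of at least 1 TPM 15 genes were tested and 14 called higher, where 50.4% of 12094 genes were, and 2 of the 15 passed through their female values. These 2 were drsh-1 and ebax-1, and the same limit holds for their p-values. A second header line of this table names the same columns as offspring of a cat heterozygote, while the labels give a WT sire, and the labels were followed.

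The partner of Drosha in hairpin processing, pash-1, stood at 12.2, 14.1 and 17.3 TPM in F1 females and 0.85, 0.85 and 1.83 TPM in F1 males, a difference of 2.85 ± 0.23 (limma adjusted p = 2.02e-05). The Argonaute gene alg-2 stood at 12.1, 18.2 and 21.2 TPM against 1.69, 2.10 and 1.81 TPM (2.63, adjusted p = 2.39e-05), and alg-5 was higher by 2.37. No female sample overlapped a male one in these 3 genes, but all 3 passed the filter through their female values. The share of all genes without overlap was not counted, so this adds nothing beyond their levels. dcr-1, which encodes Dicer, differed by 1.02, the GW182 genes ain-1 and ain-2 by 0.80 and 1.46, the deadenylase gene ccf-1 by 1.82 and the exonuclease gene xrn-2 by 1.77. The median log2 fold change was 0.88 over all 8368 genes tested and 1.68 over the 12 genes of the list. ain-1 thus lay below the median of all genes, and dcr-1 and the exonuclease gene xrn-1 (0.90) lay close to it. The reported targets nhl-2 and sup-26 were higher by 1.93 and 1.58. The deadenylase scaffold gene let-711, also named ntl-1 (1.38, adjusted p = 0.0362), was lost without any 1 of F1 females 2 and 3 and the F1 males (0.93 to 1.65), and the exonuclease gene xrn-1 (0.90, adjusted p = 0.0320) without F1 female 2, F1 female 3 or F1 male 1 (0.60 to 0.82). drsh-1, alg-1, ebax-1 and egl-1 had means under 5 TPM. With a mean of at least 1 TPM, drsh-1, which encodes Drosha, was higher by 2.30 (limma adjusted p = 6.37e-05) and ebax-1 by 1.28 (adjusted p = 0.00238), the Argonaute gene alg-1 was not called (0.61, adjusted p = 0.0874), and egl-1 was not tested.

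In single embryos of WT sires these transcripts had the following levels. The median of alg-5 was 119.6 TPM over 30 embryos of 2 cells and 60.1 TPM over 20 embryos of 8 cells. The median of alg-1 was 1.60 and then 6.33 TPM and that of ebax-1, which encodes the substrate receptor in the decay of mir-35 family members, 5.47 and then 15.8 TPM, as values with no test. egl-1 was listed at 0 in 30 of 30 and 20 of 20 embryos. sup-26 had medians of 26.3 and 39.4 TPM and nhl-2 of 52.1 and 38.6 TPM. Small RNAs of embryos were not analysed here, so the level of the family at these stages is not given.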

How the data were processed

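The members and gene lists were chosen with earlier results of these data known. The authors trimmed small RNA reads with Trimmomatic and aligned them in turn to rRNAs, miRNAs, tRNAs and piRNAs with Bowtie 2. What was left went to STAR and featureCounts, where sense reads make mRNA-fragments and antisense reads endo-siRNAs. The deposited counts are not normalized. For mRNA the deposited values are TPM plus 1 from STAR and RSEM by the authors, and the 1 was subtracted. TPM keeps no depth. Versions other than that of Bowtie and the treatment of reads with several matches are not given in the sources used here.

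Members were tested with edgeR 4.0.16 (glmQLFit, robust) in R 4.3.3 over all RNAs that reached 10 counts in n libraries, n being the size of the smaller group, with tRNA genes summed by isoacceptor. Library size was the total count within WT and within whole males, and counts without rRNA for cat/cat sperm and females, without piRNA too between the sexes. For mRNA, limma 3.58.1 with a trend was used on log2(TPM + 1), and genes below 5 TPM on average were left out. p-values were adjusted by Benjamini-Hochberg over all features tested, with a threshold of 0.05. Alternatives were other library sizes, TMM factors, DESeq2 1.42.0, no filter, a replicate block, a pseudocount of 0.1, a mean of at least 1 TPM and leaving out each library. The fits were tested on simulated data.

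In the female table the lines of piRNAs have more values than there are column names, and neither they nor its 1 unnamed column were used. The WT sperm libraries, listed in 2 tables, were counted once, and no other 2 libraries were identical. Named are all members, the cluster mates of mir-42, the 5 other miRNAs with the highest correlation to the family sum among those with a mean of at least 10 rpm, and 16 genes of the miRNA pathway. mir-45 was added for its sequence. In ∆/∆ and ∆/+ males the deviations from group means correlated in every pair of same-numbered libraries (5 pairs, 0.143 to 0.413). In no other comparison did every pair pass 0.1. Libraries of unlike number were not compared and no label gives a pairing, so pairing by number is not established. Sequences and positions are from RefSeq, WBcel235, matched by gene name for 8 of 8 members, since the tables hold no coordinates. Counting error was not computed, and it takes a larger part of the spread between libraries where counts are low, as for mir-41 and mir-42.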

Additional observations from a re-analysis of the deposited data

Results flagged for a closer look

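In groups of 4 to 6 libraries, a highest or lowest value was picked out where its gap to its neighbor exceeded Dixon's 95% critical value for the group's range. Chance does so in about 1 of 20 independent groups of normal values. The groups here share libraries, the sum holds the members, and rpm were not logged, so that rate is only a rough guide. Such a value was found in 15 of 81 groups, each time the highest library. In cat/cat sperm it was replicate 3 throughout, with 199 rpm of mir-36, 441 rpm of mir-37, 96.9 rpm of mir-38, 368 rpm of mir-39, 507 rpm of mir-40, 115 rpm of mir-41 and 61.9 rpm of mir-42, and with a family sum of 2346 rpm where the others held 628 to 909 rpm. In ∆/∆ males replicate 3 held 159 rpm of mir-35, 263 rpm of mir-37 and 143 rpm of mir-39, and a family sum of 753 rpm, while replicate 5 held 138 rpm of mir-41. mir-39 alone stood apart in WT male 3 (335 rpm, others 149.6 to 174) and in WT sperm 4 (171 rpm, others 29.5 to 45.3).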

How the results depend on the processing

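With miRNA counts as library size, 0 members were called between WT sperm and WT males (mir-39 turned to 0.75), 7 between cat/cat sperm and cat/cat males, and 0 between cat/cat and cat/+ males, where rRNA left out, TMM factors and DESeq2 also gave 0 and no filter gave 1. Between cat/cat and WT sperm all counts as library size gave 2, DESeq2 3 (with no p for 4 members) and no filter 2. DESeq2 gave 1 for ∆/∆ against ∆/+ males, and no filter gave 2 for the allele difference. The log2 ratio of family means of cat/cat to WT sperm was 1.22 over all counts, and that of WT sperm to WT males 0.037 over miRNA counts. With the replicate number as a block, 5 members were called in WT sperm against WT males, 7 in cat/cat against WT sperm and 0 in cat/cat against cat/+ males, and in the other comparisons the block changed no count of members. Numbers did not pair the libraries outside the ∆ males.

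Other changes of sign concerned log2 fold changes not called at the main settings, though miRNA counts as size called mir-36 (2.52), mir-38 (2.63) and mir-42 (2.41) in cat/cat sperm against cat/cat males. Between ∆/∆ and ∆/+ males, with rRNA left out, miRNA counts as size, TMM factors and DESeq2 in turn, mir-36 was at 0.0051, 0.24, 0.19 and 0.23, mir-38 at 0.091, 0.35, 0.25 and 0.29, and mir-42 at 0.20, 0.41, 0.39 and 0.44. Without ∆/∆ males 3 and 5 together, a setting chosen after seeing the data, mir-35 was at −0.043 and mir-40 at −0.0027, and in the sex difference mir-36 was at 0.54, mir-38 at 0.13 and mir-42 at 0.10. All counts as size gave −0.062 for mir-36 and −0.17 for mir-42 in cat/cat sperm against cat/cat males, and 0.067 for mir-36 and 0.039 for mir-38 in the sex difference. miRNA counts as size gave 0.11 for mir-42 in ∆/+ females against males and, between ∆/∆ and ∆/+ females, 0.13 for mir-35, 0.095 for mir-37, 0.0063 for mir-38, 0.15 for mir-39 and 0.054 for mir-42, where the block gave 0.0033 for mir-35, 0.010 for mir-37 and 0.0026 for mir-39. The cause was not tested.

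Leaving out 1 library at a time gave 7 to 8 members called in WT sperm against males, 0 to 3 in cat/cat against cat/+ males, 2 to 7 in cat/cat against WT sperm, 3 to 4 in cat/cat sperm against males, 5 to 6 and 6 to 7 in ∆/+ and ∆/∆ females against males, 0 in the other comparisons, and 9 to 12 pathway genes. The log2 ratio of family means of cat/cat to WT sperm was then 1.84 to 2.84, a setting also chosen after seeing the data. Signs changed in ∆/∆ against ∆/+ males for mir-35 (−0.22 to 0.81), mir-36 (−0.68 to 0.049), mir-40 (−0.15 to 0.29) and mir-42 (−0.41 to 0.10). They changed in cat/cat against cat/+ males for mir-37 (−0.15 to 0.19), and in cat/cat sperm against males for mir-36 (−0.53 to 1.40), mir-38 (−0.62 to 1.57), mir-41 (−0.84 to 1.94) and mir-42 (−0.61 to 1.27). In ∆/∆ against ∆/+ females they changed for mir-35 (−0.19 to 0.20), mir-36 (−0.33 to 0.0096), mir-37 (−0.16 to 0.17), mir-38 (−0.42 to 0.18), mir-39 (−0.19 to 0.16) and mir-40 (−0.17 to 0.27). In the sex difference they changed for mir-36 (−0.54 to 0.21), mir-38 (−0.51 to 0.086) and mir-42 (−0.50 to 0.023). When 1 library was left out, 823 log2 fold changes of members kept direction and call, 39 changed sign, 34 lost a call and 8 gained one. Under the other settings 421 kept both, 31 changed sign, 36 lost a call and 14 gained one.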

Other observations

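A few libraries of rnst-2 males held little mir-44 while the mir-35 family was not low in them. cat/+ male 4 held 174 rpm of mir-44 where the other 4 cat/+ males held 2241 to 6336 rpm, and its family sum of 217 rpm was the median of its group. ∆/∆ male 5 held 309 rpm of mir-44, where the other ∆/∆ males held 1234 to 6139.9 rpm, with a family sum of 336 rpm. ∆/+ males 4 and 5 held 822 and 659 rpm of mir-44, against 3627 to 4379 rpm in the other 3, with the 2 highest family sums of their group (209.6 and 205 rpm). The sum of 7 somatic miRNAs, among them mir-1 of muscle, lin-4 and let-7, was the lowest of its group in cat/+ male 4 (5956 rpm), ∆/∆ male 5 (6174 rpm) and ∆/+ male 5 (12863 rpm), and ∆/+ male 4 held 15599.8 rpm, against 32537 to 45176 rpm in ∆/+ males 1 to 3. The same libraries detected fewer RNAs, and most of them were also shallow. Total counts were 6000952 in cat/+ male 4, against 9646634 to 13492598 in the other cat/+ males. They were 4976236 and 5414524 in ∆/+ males 4 and 5, against 9616751 to 10456806 in ∆/+ males 1 to 3. ∆/∆ male 5 had 6374018, between ∆/∆ males 6 and 4 (6121888 and 6519064). RNAs other than piRNAs above 0 numbered 10739 in cat/+ male 4, against 23679 to 29463 in the other cat/+ males. They numbered 15681 in ∆/∆ male 5, against 25910 to 34906 in the other ∆/∆ males. In ∆/+ males 4 and 5 they numbered 18052 and 18498, against 30063 to 32125 in ∆/+ males 1 to 3. The part of depth in these numbers, and of both in the levels, was not tested.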
